A study of Mus musculus with 20 samples.

Results

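Atp1b1, Atp1b3, Kcnj2, Sgk1 and Nedd4l are 5 genes of sodium and potassium transport and its control, taken by symbol from the 55487 gene identifiers counted in granulosa cells (GCs) of 20 mice. Kcnj2, Atp1b1 and Sgk1 were chosen by their difference in expression between the 2 mouse lines in these libraries, whereas Atp1b3 and Nedd4l were not chosen by such a difference. The line differences of the first 3 genes are therefore given as a description without a test. FL1 is the Dummerstorf line bred for large and heavy litters, and ctrl is a line from the same founders that was never selected. Neither line carries a transgene or a deletion, and no agent was given. GCs were taken from the largest antral follicles, leaving aside the oocyte and the cumulus around it, of mice staged as estrus or diestrus by vaginal smear. There were 5 mice in each of the 4 groups ctrl estrus, FL1 estrus, ctrl diestrus and FL1 diestrus, with 1 library per mouse. Each line is 1 breeding population, so that selection and drift cannot be told apart in a comparison of the 2 lines.

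The sodium pump carries sodium out of the cell and potassium into it, and it consists of a catalytic alpha subunit and a beta subunit that the alpha subunit needs to reach the membrane. Kcnj2 encodes the inward rectifier potassium channel Kir2.1, which holds the membrane near the potassium equilibrium. Sgk1 encodes a kinase that glucocorticoids, FSH and other signals induce, and it raises sodium transport in part by phosphorylating the ubiquitin ligase encoded by Nedd4l, which then no longer removes sodium channels from the membrane.

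Expression is given as CPM, the reads of a gene scaled to 1000000 reads counted on genes, after TMM normalization for differences in library composition. Between 5446576 and 8257041 reads per mouse (median 6457586) were counted on genes. Only the 3′ end of each transcript was read, so the counts do not grow with transcript length. Levels are compared between mice, not between genes. The GC label was checked against 10 markers, among them Fshr, Cyp19a1, Foxl2 and Amh, which were all detected in each group, with a summed level between 5950 and 15424 CPM per mouse. Much of this sum came from Inha, with a mean of 4753 CPM over all mice. Amh was low, with reads in 14 of 20 libraries and means of 1.00 and 2.09 CPM in ctrl and FL1 diestrus. In such bulk samples fewer cells of a type and less RNA per cell cannot be told apart.

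The promoters of the 3 genes with a line difference are shown because the transcripts of these genes, not their proteins, were measured. Each sequence holds the 250 bases before a transcription start in RefSeq (GRCm38.p6), 5′ to 3′ on the strand of the gene, and capitals mark matches to the motifs searched on both strands, which were the GC box (GGGCGG), the TATA box (TATAAA), the cAMP response element CRE (TGACGTCA), its half-site (TGACG, which lies within the CRE) and the palindromic glucocorticoid response element GRE (AGAACA and TGTTCT with any 3 bases between them). The Atp1b1 sequence lies at chr1:164458356-164458605 on the minus strand, the Kcnj2 sequence at chr11:111065914-111066163 on the plus strand, and the sequences before the fifth and the sixth of 6 starts of Sgk1 at chr10:21993640-21993889 and chr10:21994416-21994665 on the plus strand.
Atp1b1: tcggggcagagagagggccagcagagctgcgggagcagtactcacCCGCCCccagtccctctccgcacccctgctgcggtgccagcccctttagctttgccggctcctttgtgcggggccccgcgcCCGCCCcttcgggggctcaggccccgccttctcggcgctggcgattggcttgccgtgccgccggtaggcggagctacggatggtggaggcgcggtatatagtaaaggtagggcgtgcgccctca
Kcnj2: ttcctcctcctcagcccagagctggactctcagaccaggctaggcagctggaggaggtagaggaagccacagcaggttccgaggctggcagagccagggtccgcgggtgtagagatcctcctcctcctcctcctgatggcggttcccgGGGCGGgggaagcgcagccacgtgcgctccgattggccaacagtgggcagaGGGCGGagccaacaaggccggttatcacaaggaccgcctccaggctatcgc
Sgk1, start 5: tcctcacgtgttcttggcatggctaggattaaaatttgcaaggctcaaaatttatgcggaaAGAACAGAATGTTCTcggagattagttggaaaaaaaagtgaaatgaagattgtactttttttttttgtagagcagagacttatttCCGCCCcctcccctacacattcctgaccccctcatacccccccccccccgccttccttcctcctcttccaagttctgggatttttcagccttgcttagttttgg
Sgk1, start 6: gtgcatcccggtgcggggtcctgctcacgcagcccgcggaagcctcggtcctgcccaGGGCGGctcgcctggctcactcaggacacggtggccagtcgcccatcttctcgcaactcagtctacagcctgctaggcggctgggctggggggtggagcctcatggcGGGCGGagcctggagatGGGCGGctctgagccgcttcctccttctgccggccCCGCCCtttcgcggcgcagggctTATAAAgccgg
The sequences of Atp1b1 and Kcnj2 each hold 2 GC boxes, and GC boxes occur in 32.7% of the 32851 promoter sequences of the same length. The sixth start of Sgk1 has 4 GC boxes and a TATA box, a motif found in 12.4% of all promoters. Before the fifth start of Sgk1 lies a full GRE at chr10:21993701-21993715, 965 bases before the sixth start, and this motif matched 3 of the 32851 promoters (0.00913%), the others belonging to Acnat2 and Gm35041. A match is a description of these letters only. No CRE (1.55% of promoters) and no CRE half-site (17.8%) was found in the 4 sequences shown. Of the 4 starts of Sgk1 not shown, the second has a CRE half-site at chr10:21978436-21978440 and the fourth a TATA box at chr10:21992195-21992200. Which start of Sgk1 was used cannot be read from 3′ counts.

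Atp1b1 encodes the beta1 subunit of the sodium pump. It lies at chr1:164437109-164458355 on the minus strand of GRCm38 (ENSMUSG00000026576) and has 4 transcripts with 7 merged exons. In estrus the ctrl mice had 57.7, 100.3, 47.7, 87.8 and 107.98 CPM, and the FL1 mice had 202, 173, 140, 244 and 172 CPM. All 5 FL1 mice lay above all 5 ctrl mice. In diestrus the values were 147, 110, 87.8, 124 and 188 CPM in ctrl and 101.2, 324, 253, 191 and 279 CPM in FL1. Here 4 of 5 FL1 mice lay above all ctrl mice, and FL1 diestrus replicate 1 lay within the ctrl range.

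The mean levels of Atp1b1 followed the order ctrl estrus (80.3 ± 26.4 CPM, SD, n = 5), ctrl diestrus (131 ± 38.3), FL1 estrus (186 ± 39.1) and FL1 diestrus (230 ± 86.4). The ranges of all neighbours in this order overlapped. The log2 fold change of FL1 against ctrl was 1.21 (SE 0.24) in estrus and 0.81 (SE 0.28) in diestrus. Of all genes tested, 0.769% passed an adjusted p of 0.05 in estrus and 0.248% in diestrus, and in 1.85% of the genes tested in estrus all FL1 mice lay above all ctrl mice. These shares are given only as background, since Atp1b1 was chosen for its line effect.

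The stage effect was tested for all 5 genes with diestrus set against estrus and the line as covariate. With 5 mice per group this contrast is balanced over the lines, but it uses the same mice as the line effects. Where the groups differ in spread, as for Sgk1, the stage and the line effect are not independent. For Atp1b1 the log2 fold change was 0.51 (SE 0.19), which did not pass the test (edgeR adjusted p = 0.176). Without FL1 diestrus replicate 1 it was 0.61 with an edgeR adjusted p of 0.0359. Within ctrl mice the diestrus level differed by 0.70 on the log2 scale (SE 0.26) and within FL1 mice by 0.29 (SE 0.26). The difference of the line effects, diestrus minus estrus, was -0.41 (SE 0.38).

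The 3′ end of Atp1b1 overlaps the end of Nme7, a gene on the other strand, and the strand setting of the counting is not given in the sources used here. Nme7 had means of 27.2 ± 10.97, 20.9 ± 8.57, 28.3 ± 6.02 and 28.8 ± 5.58 CPM in ctrl estrus, FL1 estrus, ctrl diestrus and FL1 diestrus. Its log2 fold change of FL1 against ctrl was -0.39 (edgeR adjusted p = 0.829) in estrus and 0.03 (edgeR adjusted p = 1.00) in diestrus. The difference of Atp1b1 was thus not seen in the counts of Nme7.

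**Figure D1:**
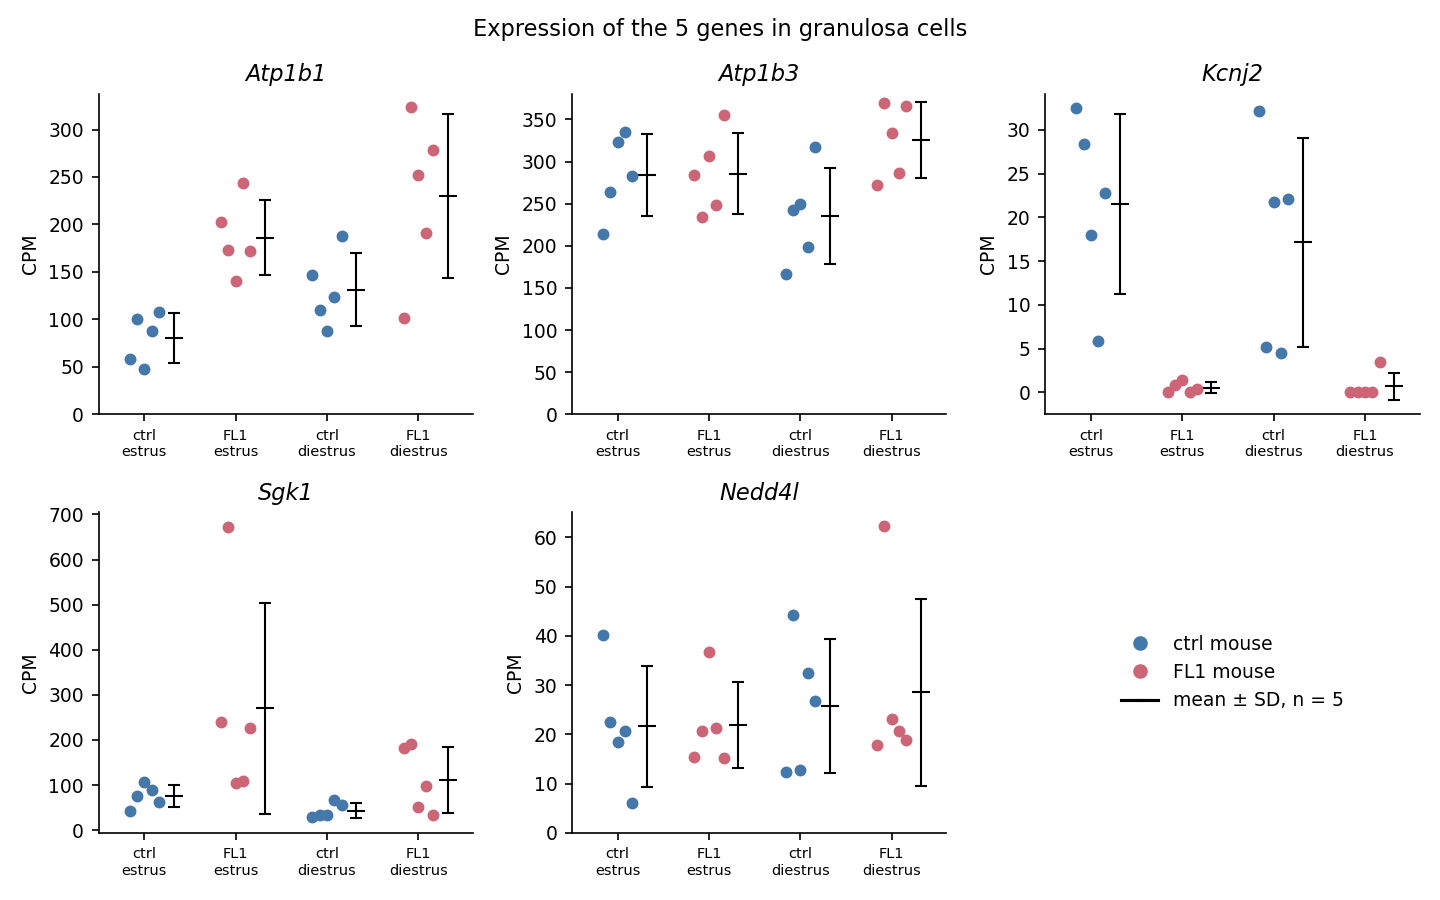
CPM of the 5 genes (vertical axes, linear) in each mouse of the 4 groups (horizontal axes), with each group's mean and SD in black. All FL1 mice lie below all ctrl mice for Kcnj2, all FL1 estrus mice lie above all ctrl estrus mice for Atp1b1, and 1 FL1 estrus mouse stands at 673 CPM for Sgk1.

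Atp1b3 encodes the beta3 subunit of the pump and lies at chr9:96332655-96364442 on the minus strand (ENSMUSG00000032412). In estrus its values were 214, 263, 324, 335 and 282 CPM in ctrl and 284, 234, 306, 248 and 355 CPM in FL1. The ranges overlapped almost entirely, and the means were 284 ± 48.7 and 285 ± 48.3 CPM. The log2 fold change was 0.01 (SE 0.19, edgeR adjusted p = 0.997). In diestrus the values were 166, 242, 250, 199 and 317 CPM in ctrl and 272, 370, 334, 286 and 366 CPM in FL1. Here 3 of 5 FL1 mice lay above all ctrl mice, with means of 235 ± 57.1 and 325 ± 45.1 CPM. The log2 fold change of 0.48 (SE 0.20) did not pass the test (edgeR adjusted p = 0.835, unadjusted p = 0.0304).

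The order of the group means of Atp1b3 was ctrl diestrus, ctrl estrus, FL1 estrus and FL1 diestrus, with overlapping ranges between all neighbours. The stage effect was -0.04 (SE 0.14, edgeR adjusted p = 0.943), and the line effects of the 2 stages differed by 0.46 (SE 0.27, edgeR adjusted p = 1.00). A near copy, the pseudogene Gm1848, held 15 reads in all 20 libraries against 37818 for Atp1b3.

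The ratio of the Atp1b1 to the Atp1b3 count in the same library sets these 2 beta subunits side by side and was read only between mice. The beta2 subunit gene Atp1b2 was detected in all 20 libraries as well and is not part of this ratio. In ctrl estrus it was 0.269, 0.381, 0.148, 0.262 and 0.383, and in FL1 estrus 0.712, 0.740, 0.457, 0.984 and 0.484, without overlap. In diestrus it was 0.883, 0.455, 0.351, 0.623 and 0.594 in ctrl and 0.373, 0.877, 0.757, 0.669 and 0.761 in FL1, with overlapping ranges. The geometric means were 0.273 in ctrl estrus, 0.649 in FL1 estrus, 0.554 in ctrl diestrus and 0.661 in FL1 diestrus. Ctrl estrus was thus the group with the lowest ratio. The ratio contains Atp1b1 and is a description for the same reason as its line effect.

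**Figure D2:**
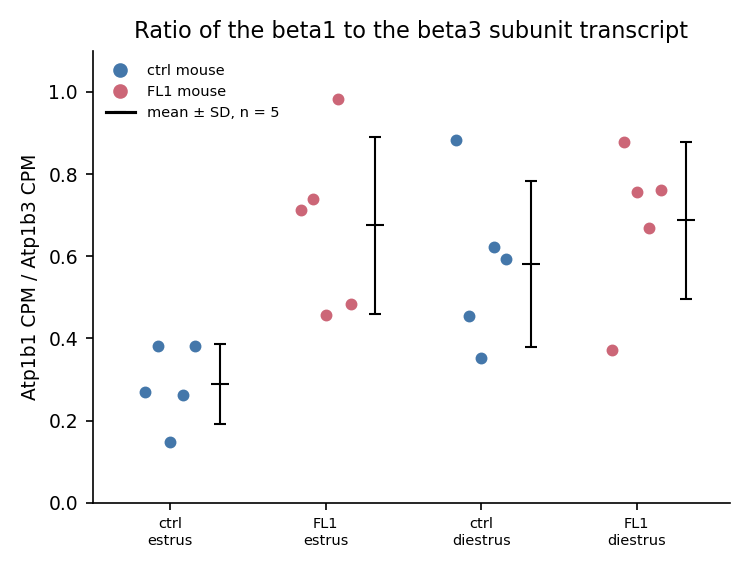
Ratio of Atp1b1 CPM to Atp1b3 CPM (vertical axis, no unit) in each mouse of the 4 groups (horizontal axis), with the arithmetic mean and SD of each group in black. The 5 ctrl estrus mice lie between 0.148 and 0.383, and the 5 FL1 estrus mice lie between 0.457 and 0.984.

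Kcnj2 lies at chr11:111066164-111076821 on the plus strand (ENSMUSG00000041695) and has 1 transcript with 2 exons. In estrus the ctrl mice had 32.5, 28.4, 18.0, 5.89 and 22.8 CPM, from 223, 183, 157, 40 and 132 reads. The FL1 mice had 0, 0.874, 1.40, 0 and 0.339 CPM, from 0, 7, 9, 0 and 2 reads. Every FL1 mouse lay below every ctrl mouse, as in 1.71% of all genes tested, and the mean was 21.5 ± 10.3 CPM in ctrl against 0.523 ± 0.608 CPM in FL1.

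In diestrus Kcnj2 stood at 32.1, 5.22, 21.8, 4.54 and 22.1 CPM in ctrl mice, from 180, 39, 163, 25 and 165 reads. In FL1 mice 4 libraries had no read and replicate 5 had 3.41 CPM from 20 reads. Again no FL1 mouse reached the lowest ctrl mouse, as in 0.768% of all genes tested, with means of 17.1 ± 11.9 and 0.682 ± 1.53 CPM. For the 6 FL1 libraries without a read, 3 counts would amount to between 0.395 and 0.533 CPM, and a level up to this size was not detectable in them. These limits cover counting error only, since reads were not collapsed by molecular identifiers.

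The ratio of the ctrl mean to the FL1 mean was 41.1 in estrus and 25.1 in diestrus for Kcnj2. The fitted log2 fold change was -5.31 (SE 0.87) in estrus and -4.65 (SE 1.24) in diestrus. The latter rests on FL1 diestrus replicate 5. Without this mouse all FL1 libraries are at 0, and the level was at least 32.1-fold lower than the ctrl mean when each library is set to 3 counts. In ctrl mice alone the levels spread widely, since 3 of 10 mice lay between 4.54 and 5.89 CPM and the other 7 between 18.0 and 32.5 CPM.

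The group means of Kcnj2 followed the order FL1 estrus, FL1 diestrus, ctrl diestrus and ctrl estrus. The 2 FL1 groups overlapped, as did the 2 ctrl groups. No stage effect was detectable at this depth (log2 fold change -0.06, SE 0.73, edgeR adjusted p = 0.985). The line effects of the stages differed by 0.66 (SE 1.45), and within FL1 the counts were too low for a fit of the stages.

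Within 500 kb of Kcnj2 only Kcnj16 and Gm11675 are annotated, and both were too low to be tested. Kcnj16, which encodes the inward rectifier Kir5.1, is named here after its values were seen. It had 154 reads in all. In estrus it had 5.81 and 5.24 CPM in FL1 replicates 1 and 2 and none in the other 3 FL1 mice and all 5 ctrl mice. In diestrus FL1 replicates 1, 2 and 4 had 1.72, 4.79 and 4.77 CPM, the other 2 FL1 mice had none, and ctrl mice had 1 read in total. The Kcnj16 reads therefore came almost entirely from 5 FL1 mice, and Kcnj2 was at 0 in 4 of these mice and at 0.874 CPM in the fifth. Kcnj2 was also at 0 in FL1 estrus replicate 4 and FL1 diestrus replicate 3, which had no Kcnj16 read. Because Kcnj2 was chosen for its line effect, this is a description, and a link between the 2 genes was not tested.

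Sgk1 lies at chr10:21882184-21999903 on the plus strand (ENSMUSG00000019970) and has 13 transcripts with 18 merged exons. In estrus its level was 43.4, 75.3, 107.5, 88.4 and 63.3 CPM in ctrl mice and 241, 673, 103.5, 107.9 and 227 CPM in FL1 mice. FL1 replicate 3 fell below the highest ctrl mouse, replicate 4 was just above it, and the other 3 were clearly higher. In diestrus the level was 28.2, 33.2, 33.6, 67.4 and 54.8 CPM in ctrl and 183, 190, 50.7, 97.6 and 32.6 CPM in FL1. Here 3 of 5 FL1 mice lay above all ctrl mice, and replicates 3 and 5 lay within their range.

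The mean of Sgk1 was 43.4 ± 16.9 CPM in ctrl diestrus, 75.6 ± 24.3 CPM in ctrl estrus, 110.8 ± 73.2 CPM in FL1 diestrus and 270 ± 234 CPM in FL1 estrus, with overlapping ranges between all neighbours in this order. The log2 fold change of FL1 against ctrl was 1.84 (SE 0.42) in estrus and 1.36 (SE 0.42) in diestrus. Without FL1 estrus replicate 2, the mouse at 673 CPM, the former was 1.17.

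The stage effect of Sgk1, diestrus against estrus, was -1.05 on the log2 scale (SE 0.32), which did not pass the threshold (edgeR adjusted p = 0.0669), while 3.17% of all 14938 genes tested passed it. It passed with DESeq2 (adjusted p = 0.0288) and with limma-voom (adjusted p = 0.0299). Without FL1 estrus replicate 2 the change was -0.73 with an edgeR adjusted p of 0.172. In contrast, it passed without ctrl diestrus replicate 4, FL1 estrus replicate 3, FL1 estrus replicate 4 or FL1 diestrus replicate 1. FL1 estrus replicate 2 also raised the line effect of Sgk1 in estrus. This stage test is therefore not independent of the line effect by which Sgk1 was chosen. The fold change was -0.81 (SE 0.29) within ctrl and -1.29 (SE 0.51) within FL1. The line effects of the 2 stages differed by -0.49 (SE 0.63), and by 0.19 without FL1 estrus replicate 2.

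The ends of some Sgk1 transcripts share at least 100 nt of at least 90% identity with 5 other genes, of which Fam49a held most reads, 738 in all libraries against 17462 for Sgk1. How reads were divided between such copies was not tested.

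Nedd4l lies at chr18:64887705-65217828 on the plus strand (ENSMUSG00000024589) and has 34 transcripts. In estrus its level was 40.2, 22.5, 18.4, 20.8 and 6.06 CPM in ctrl and 15.4, 20.6, 36.6, 21.2 and 15.3 CPM in FL1. In diestrus it was 12.3, 44.2, 12.7, 32.5 and 26.7 CPM in ctrl and 17.8, 62.3, 23.2, 20.6 and 18.8 CPM in FL1. The 4 ranges overlapped, and the means in the order ctrl estrus, FL1 estrus, ctrl diestrus and FL1 diestrus were 21.6 ± 12.2, 21.8 ± 8.74, 25.7 ± 13.6 and 28.5 ± 19.0 CPM.

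No comparison of Nedd4l passed the test. The log2 fold change of FL1 against ctrl was 0.01 (SE 0.43, edgeR adjusted p = 0.998) in estrus and 0.17 (SE 0.43, edgeR adjusted p = 1.00) in diestrus. The stage effect was 0.32 (SE 0.31, edgeR adjusted p = 0.736), and the line effects of the stages differed by 0.14 (SE 0.64, edgeR adjusted p = 1.00). The antisense gene A330084C13Rik, which overlaps Nedd4l, held 161 reads against 3313 for Nedd4l.

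**Figure D3:**
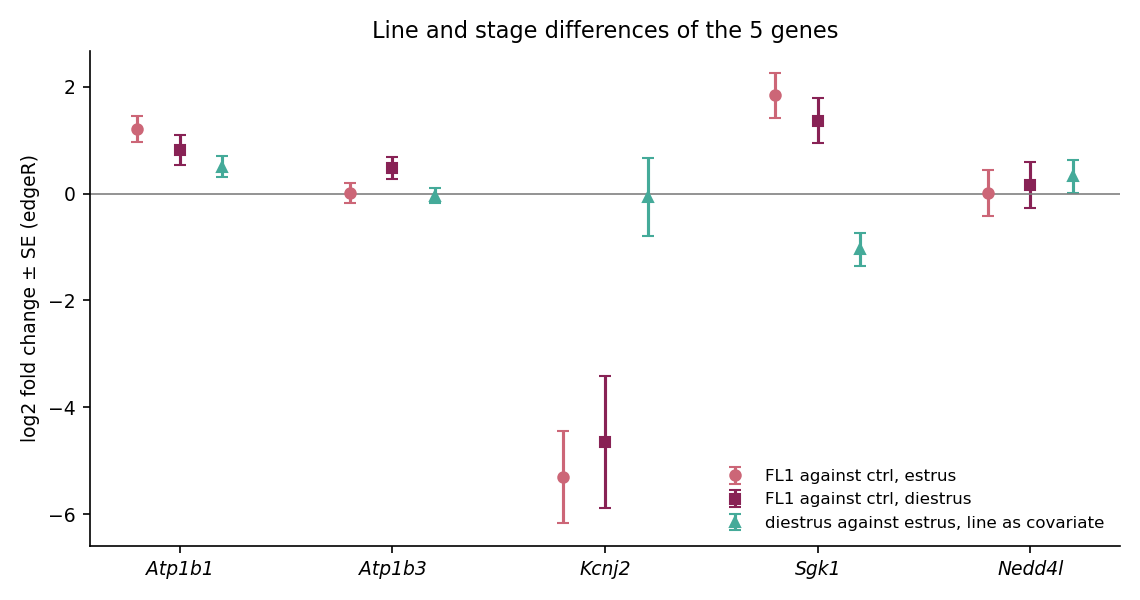
Log2 fold changes of the 5 genes (vertical axis) with their SE as bars, for FL1 against ctrl in estrus (circles), in diestrus (squares) and for diestrus against estrus with the line as covariate (triangles). Kcnj2 lies far below 0 in both line comparisons, Atp1b1 and Sgk1 lie above 0 in both, Sgk1 is the gene with the lowest stage effect (-1.05), and Nedd4l lies within 1 SE or close to it throughout.

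Of the interaction of line and stage over all 14938 genes, 0 genes (0%) passed with edgeR, while 710 (4.75%) had an unadjusted p under 0.05, 1 gene passed with DESeq2 and 6 passed without a filter on low counts.

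Mice of the same group differed in the levels of the 5 genes without a common pattern. After the group means had been subtracted from log2 CPM, the 10 pairs of genes gave Pearson's r between -0.38 (Kcnj2 and Sgk1) and 0.23 (Atp1b1 and Atp1b3) over 20 mice. No pair passed the permutation test within groups. For Kcnj2 and Sgk1 the p was 0.167 (Benjamini-Hochberg adjusted p = 0.980), Spearman's rho was -0.34 with a permutation p of 0.174, and r was -0.08 without the 2 mice farthest from the median of Kcnj2.

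The genes whose levels over the 20 mice were most like those of the 5 genes are given by Pearson's r of log2 CPM among 14938 genes, as a description over mice that share line and stage. For Atp1b1 they were Nceh1 (0.84), Dnajb14 (0.83) and Vps37a (0.81), and for Atp1b3 they were Uap1 (0.79), Fkbp7 (0.78) and Elmod2 (0.77). For Kcnj2 they were St3gal5 (0.92), which makes the ganglioside GM3, Wfdc10 (0.89) and Jam2 (0.85), a junctional adhesion molecule. St3gal5 had means of 182 and 41.6 CPM in ctrl and FL1 estrus and of 165 and 40.9 CPM in diestrus. For Sgk1 they were Slc11a1 (0.89), a metal transporter, Cited4 (0.89) and Gm2a (0.88), the GM2 activator, which had means of 127 and 502 CPM in ctrl and FL1 estrus and of 62.7 and 186 CPM in diestrus. For Nedd4l they were Srfbp1 (0.76), Upp1 (0.75) and Tdrd12 (0.74).

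Beyond the 5 genes, other genes of 7 lists were followed, namely the sodium pump, inward rectifier and two-pore potassium channels, SGK kinases and their activators, SGK1 substrates with the epithelial sodium channel, ligases of the NEDD4 family, sodium-coupled transport and glucocorticoid response. Of the other genes listed, 60 passed the filter on low counts and were tested for the line effect in each stage and 69 for the stage effect. In estrus 1 of the 60 passed, higher in FL1, against 0.769% of all genes, and 9 had an unadjusted p under 0.05, against 10.7% of all genes. In diestrus 0 passed with edgeR and with limma-voom and 1 with DESeq2, against 0.248% of all genes with edgeR, and 6 had an unadjusted p under 0.05, against 5.56%. For the stage effect 5 of the 69 genes were higher and 1 was lower in diestrus, against 3.17% of all genes in either direction, and 17 had an unadjusted p under 0.05, against 14.6%. The median log2 fold change of the listed genes was 0.24, 0.08 and 0.11 in the 3 comparisons, against 0.01, 0.01 and 0.02 for all genes.

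Of the sodium pump list, Atp1b2, the beta2 subunit, is named after its values were seen. It had 339 ± 98.7 CPM in ctrl estrus against 184 ± 49.8 CPM in FL1 estrus, a difference opposite to that of Atp1b1 (log2 fold change -0.88, SE 0.24), which did not pass (edgeR adjusted p = 0.109). The regulators Fxyd1 and Fxyd6 were detected in all 20 mice, and Atp1b4, Fxyd3 and Fxyd7 were at 0 throughout.

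Of the potassium channels, Kcnj3, a channel opened by G proteins, was higher in diestrus than in estrus. It had 48.1 ± 9.39 and 43.0 ± 13.6 CPM in ctrl and FL1 estrus and 86.0 ± 24.9 and 72.3 ± 21.9 CPM in diestrus, a log2 fold change of 0.79 (SE 0.18, edgeR adjusted p = 0.00972). The two-pore channel Kcnk3 had 22.4 ± 18.2 and 68.9 ± 50.7 CPM in ctrl and FL1 estrus and 10.9 ± 3.55 and 24.5 ± 14.3 CPM in diestrus. Neither its line effect of 1.62 in estrus (SE 0.55, edgeR adjusted p = 0.227) nor its stage effect of -1.27 (SE 0.37, edgeR adjusted p = 0.0572) passed. The two-pore channel Kcnk5, named after its values were seen, was lower in FL1 estrus, as Kcnj2 was. It had 22.7 ± 11.7 against 8.51 ± 4.49 CPM in ctrl and FL1 estrus (unadjusted edgeR p under 0.05) and did not pass. In diestrus it had 13.4 ± 6.75 and 10.6 ± 2.98 CPM. Of the 28 other channels listed, 7 were tested for the line effect in each stage. The line difference of Kcnj2 thus had no counterpart that passed the test among these.

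Around the kinase, Rictor, a core part of the complex mTORC2 that activates SGK1, was higher in diestrus, with a log2 fold change of 0.91 (SE 0.24, edgeR adjusted p = 0.0333). Hsd11b2, which inactivates glucocorticoids, had 186 ± 60.1 and 278 ± 88.0 CPM in ctrl and FL1 estrus and 183 ± 68.4 and 450 ± 246 CPM in diestrus. Its log2 fold change was 0.58 (SE 0.27, edgeR adjusted p = 0.437) in estrus and 1.31 (SE 0.33, edgeR adjusted p = 0.198) in diestrus, and in each stage 4 of 5 FL1 mice lay above all ctrl mice.

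Among the substrates, Ndrg2, which SGK1 phosphorylates, was the 1 listed gene with a line effect. It had 59.9 ± 19.2 CPM in ctrl estrus and 149 ± 51.6 CPM in FL1 estrus, with 4 of 5 FL1 mice above all ctrl mice (log2 fold change 1.32, SE 0.27, edgeR adjusted p = 0.0283). In diestrus the means were 70.9 ± 8.84 and 65.1 ± 19.8 CPM. The difference of the 2 line effects was -1.44 (SE 0.36) and did not pass (edgeR adjusted p = 0.933, unadjusted p = 0.000489). Ndrg2 was named for its line effect in estrus, which is part of this difference, so the unadjusted p is no independent test. The call in estrus was lost with limma-voom and when ctrl estrus replicate 1, 3 or 4 or FL1 estrus replicate 1 or 2 was left out, with no listed gene passing then.

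Foxo1, a transcription factor that SGK1 and AKT keep out of the nucleus, was higher in diestrus in both lines. It had 1076 ± 100.6 and 782 ± 238 CPM in ctrl and FL1 estrus and 2128 ± 478 and 1516 ± 321 CPM in diestrus. The log2 fold change was 0.97 (SE 0.15, edgeR adjusted p = 0.000338), and within each line all 5 diestrus mice lay above all 5 estrus mice, as in 1.82% of the genes tested within ctrl and 1.11% within FL1. Tested within a line, Foxo1 passed in ctrl (edgeR adjusted p = 0.0143). Within FL1 no other gene of this list, Foxo1 included, passed (lowest edgeR adjusted p 0.0754). Wnk1, a kinase that controls cation chloride cotransport, had a stage effect of 0.17 (SE 0.13, edgeR adjusted p = 0.619).

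Of the 9 other tested genes of the NEDD4 list 0 passed with edgeR in the 3 comparisons, with 1 gene at an unadjusted p under 0.05 in each (Smurf2, Hecw2 and Ndfip2). Nedd4, the closest relative of Nedd4l, had means between 1545 and 1816 CPM in the 4 groups and a stage effect of -0.05 (SE 0.11, edgeR adjusted p = 0.894). Ndfip1, an adaptor that activates these ligases, had means between 395 and 519 CPM and a stage effect of -0.24 (SE 0.16, edgeR adjusted p = 0.574).

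Of the transporters, Slc8a1, the sodium calcium exchanger, and Slc4a7, a sodium bicarbonate cotransporter, were higher in diestrus. Slc8a1 had 55.2 ± 9.55 and 66.8 ± 22.5 CPM in ctrl and FL1 estrus and 138 ± 51.6 and 158 ± 69.1 CPM in diestrus (log2 fold change 1.28, SE 0.21, edgeR adjusted p = 0.000603). Slc4a7 changed by 0.67 on the log2 scale (SE 0.16, edgeR adjusted p = 0.0190). Both use the sodium gradient that the pump maintains.

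Of the 8 genes of the glucocorticoid list, only Fkbp5, a cochaperone of the glucocorticoid receptor, passed the stage effect, with a log2 fold change of -0.62 (SE 0.17, edgeR adjusted p = 0.0359), lower in diestrus. Its means were 511 ± 98.7 and 573 ± 294 CPM in ctrl and FL1 estrus and 345 ± 50.1 and 360 ± 73.6 CPM in diestrus, the same direction as the values of Sgk1. Klf9 had a stage effect of -0.26 (SE 0.20, edgeR adjusted p = 0.639). Tsc22d3, named after its values were seen, went the other way. It had 23.5 ± 7.57 and 23.9 ± 10.8 CPM in ctrl and FL1 estrus and 52.3 ± 19.9 and 41.3 ± 27.1 CPM in diestrus. Its unadjusted edgeR p for the stage was under 0.05, but it did not pass. In all, 5 of the 8 genes had a positive stage effect. The list as a whole therefore had no common direction.

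**Figure D4:**
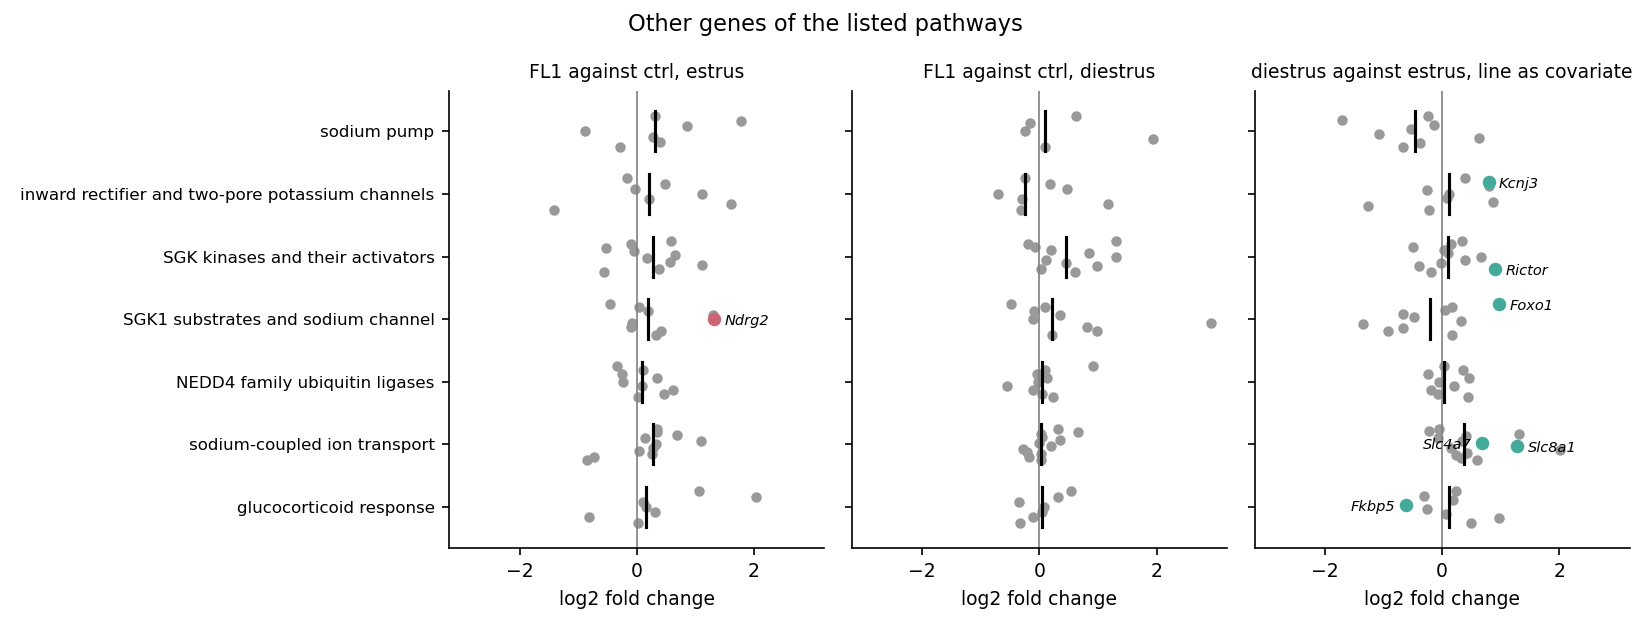
Log2 fold changes (horizontal axes) of the tested genes of the 7 lists (vertical axis) other than the 5 genes, for FL1 against ctrl in estrus and in diestrus and for diestrus against estrus with the line as covariate. Each point is a gene, coloured and named where it passed an adjusted p of 0.05 (1, 0 and 6 genes), and black bars are list medians.

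Markers of other cell types were set beside these values. Mature GCs also express the luteal markers listed here. The summed level of 7 luteal markers (Lhcgr, Star, Ptgfr, Prlr, Akr1c18, Cyp11a1 and Scarb1) was between 5144 and 10534 CPM in FL1 estrus and between 1046 and 2430 CPM in ctrl estrus, without overlap, and 4 of the 7, among them Star (log2 fold change 2.10, edgeR adjusted p = 0.0106), passed the test. In diestrus it was between 1712 and 4919 CPM in FL1 and between 820 and 1865 CPM in ctrl, and Star passed. Star, Cyp11a1 and Scarb1 were lower in diestrus than in estrus (log2 fold change -1.30, -1.51 and -0.63), the direction of the values of Sgk1. The highest sum, 10534 CPM, was that of FL1 estrus replicate 2, the mouse with 673 CPM of Sgk1. The part of this shift in the line differences of Atp1b1, Kcnj2 and Sgk1 was not tested.

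Sums of 10 leukocyte and 8 epithelial markers did not overlap between the lines in estrus either, with FL1 higher, between 54.3 and 123 CPM against 19.96 and 54.2 CPM in ctrl, and between 56.7 and 110.9 CPM against 14.4 and 35.0 CPM, although the lowest edgeR adjusted p was 0.0668 among the leukocyte and 0.114 among the epithelial markers. In diestrus the leukocyte sum was between 10.2 and 91.5 CPM in FL1 (median 72.9) and between 7.67 and 23.7 CPM in ctrl (median 19.2). The fold changes of all 6 leukocyte markers tested there were above 0 (median log2 fold change 1.32, lowest edgeR adjusted p 0.203). The epithelial sums overlapped in diestrus (9.38 to 45.3 CPM against 17.8 to 52.7 CPM). Sums of 10 theca and stroma markers overlapped between the lines in both stages (746 to 2039 CPM in estrus and 291 to 1523 CPM in diestrus), with Insl3, a marker of theca cells, at 0 in all groups but ctrl diestrus. Of this list Cyp17a1 was higher and Col3a1 lower in diestrus (log2 fold change 2.603 and -1.44). The stage effect was above 0 for 2 of 9 theca and stroma, 2 of 10 leukocyte and 0 of 7 endothelial markers tested. It was above 0 for 0 of 7 epithelial and 5 of 7 oocyte markers. In this order the median log2 fold changes were -0.93, -0.81, -0.49, -0.58 and 0.21. The endothelial (18.7 to 153 CPM), oocyte (50.4 to 505 CPM), erythrocyte (47.6 to 1620 CPM) and cumulus expansion markers (0 to 13.5 CPM) had no gene that passed a line or stage effect. In diestrus the fold changes of all 7 endothelial and all 4 erythrocyte markers tested were nonetheless above 0 in FL1 against ctrl (median log2 fold change 1.46 and 1.61, lowest edgeR adjusted p 0.552 and 0.359), and the median sums were 75.4 against 33.5 CPM and 769 against 281 CPM. Of the granulosa markers Fshr, Cyp19a1 and Inhba passed the stage effect, higher in diestrus (log2 fold change 1.34, 1.58 and 1.46). Of 8 immediate early genes Fos passed it (1.82), and their sum was between 143 and 306 CPM in estrus and between 164 and 527 CPM in diestrus. The part of these cells and genes in the values of the 5 genes was not tested.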

How the data were processed

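GCs of 20 mice were profiled with a 3′ mRNA kit (QuantSeq Fw), 1 mouse per library, 5 per line and stage. The authors deposited raw read counts per Ensembl gene, made from trimmed reads that were mapped to GRCm38 with STAR. The RNA kit is named differently in the labels and the methods. The 20 samples were grouped by the labels, and each replicate is a separate mouse. Of 55487 identifiers 55227 matched GENCODE M21. Rows that name no gene were left out, so that between 48.9% and 58.4% of the reads in the files were used, and between 23.2% and 32.8% were multimapping.

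Counts were normalized by TMM and tested with the quasi-likelihood F test of edgeR 4.0.16 (R 4.3.3) after filtering (minimum count 10, minimum total 15, minimum share 0.7), with Benjamini-Hochberg adjustment over all genes tested and a threshold of 0.05. Line effects were fitted within a stage on 10 mice, the stage effect on 20 mice with the line as covariate, and the interaction with 1 coefficient per group. Log2 CPM have a prior count of 2. Pairs of genes were tested with 100000 two-sided permutations within groups (NumPy 2.4.6, SciPy 1.17.1). Near copies are genes that matched the last 500 nt of a transcript with at least 90% identity over at least 100 nt (BLAST 2.17.0). Alternatives were DESeq2 1.42.0, limma 3.58.1 (voom with sample weights), RLE or total counts as scaling, no filter, robust estimation, all mice in one fit, the replicate number as block, and each mouse left out. The scripts were tested on simulated data.

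The 5 genes and the lists were chosen with earlier results of these data known. Named are the 5 genes, listed genes that passed a line or the stage effect, the 2 genes with the highest mean per list, and the 3 genes most like each of the 5. Some other listed genes, among them Kcnj16, Atp1b2, Kcnk5, Tsc22d3 and Smurf2, were named outside this rule after their values were seen. Results for 1 item are not reported here.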

Additional observations from a re-analysis of the deposited data

Results flagged for a closer look

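Of the 20 combinations of gene and group, 4 had a highest mouse that stood far from the other 4 of its group by Dixon's criterion (the gap to the next mouse over 0.71 of the whole range), which chance alone gives in about 1 of 20 groups of normally distributed values, a rate that need not hold for skewed CPM values. Kcnj2 was at 3.41 CPM in FL1 diestrus replicate 5 and had no read in the other 4 mice of this group, so that any read in the fifth mouse would have met the criterion. Sgk1 reached 673 CPM in FL1 estrus replicate 2, with 103.5 to 241 CPM in the others. Nedd4l reached 36.6 CPM in FL1 estrus replicate 3, with 15.3 to 21.2 CPM in the others, and 62.3 CPM in FL1 diestrus replicate 2, with 17.8 to 23.2 CPM in the others. All 4 were FL1 mice, and they were 4 different mice.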

How the results depend on the processing

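The line effects of Atp1b1, Kcnj2 and Sgk1 kept their direction under all alternatives run. For Kcnj2 in diestrus the fitted value was -6.20 with limma-voom and -6.75 with the replicate block, and it ranged from -9.82 to -4.29 with each mouse left out, the extreme without FL1 diestrus replicate 5, where the value depends on the prior count and is no bound. For Sgk1 in estrus the range was 1.17 to 2.06. The stage effect of Sgk1 passed with DESeq2 (-1.05), limma-voom (-1.15) and without the filter on low counts (-1.06), and ranged from -1.16 to -0.73 with each mouse left out. That of Atp1b1 ranged from 0.40 to 0.61, passing only without FL1 diestrus replicate 1. Effects near 0 changed sign with single mice left out: Atp1b3 in estrus (-0.080 to 0.079) and for the stage (-0.10 to 0.0066), Nedd4l in estrus (-0.24 to 0.36), in diestrus (-0.34 to 0.44), between the stages within ctrl (-0.037 to 0.60) and within FL1 (-0.13 to 0.64), and Kcnj2 for the stage (-1.08 to 0.13). The difference of the line effects ranged from -0.37 to 0.42 for Nedd4l, -0.77 to 0.19 for Sgk1 and -4.55 to 1.36 for Kcnj2, for which it was -0.81 with limma-voom. The cause was not tested.

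The replicate numbers name different mice and did not pair the samples: of 30 pairs with the same number 1 correlated over 0.1 (r from -0.17 to 0.12). With the replicate block 58 genes passed in estrus in place of 100 and 13 in diestrus in place of 32, no other listed gene passed in estrus (0 in place of 1), and the difference of the line effects was -0.048 for Kcnj2 and -0.00075 for Nedd4l.

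Of the other listed genes in estrus, 2 passed with DESeq2, 0 with limma-voom and 3 without the filter, and 0 to 2 with each mouse left out. In diestrus 1 passed with DESeq2 and 1 without the filter. Over all genes DESeq2 called 422 in estrus, 118 in diestrus and 881 for the stage, and without the filter 373 passed in estrus, while over all alternatives 13 to 118 passed in diestrus. limma-voom called 787 for the stage. Without FL1 estrus replicate 1 66 genes passed in estrus, without FL1 diestrus replicate 4 21 in diestrus, and without FL1 diestrus replicate 1 728 for the stage. Between the stages within ctrl 175 genes passed (77 to 176 with each mouse left out, up to 525 otherwise), and within FL1 29 (13 to 178, up to 299 otherwise).

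The lowest adjusted permutation p of the 10 correlations of gene pairs within groups was 0.194 over all alternatives. Those of Kcnj2 and Sgk1 (-0.59 to -0.12 with each mouse left out), Kcnj2 and Nedd4l (-0.31 to -0.11) and Atp1b1 and Atp1b3 (0.094 to 0.35) kept their sign under all alternatives, and the other 7 changed sign: Atp1b1 and Kcnj2 (-0.11 to 0.13), Atp1b1 and Sgk1 (-0.33 to 0.048), Atp1b1 and Nedd4l (-0.20 to 0.19), Atp1b3 and Kcnj2 (-0.15 to 0.17), Atp1b3 and Sgk1 (-0.11 to 0.18), Atp1b3 and Nedd4l (-0.095 to 0.28), Sgk1 and Nedd4l (-0.089 to 0.21). Spearman's rho was -0.014 for Atp1b1 and Kcnj2, 0.078 for Atp1b1 and Nedd4l, -0.063 for Atp1b3 and Kcnj2 and 0.053 for Atp1b3 and Sgk1. Without the 2 farthest mice r was -0.068 for Atp1b1 and Kcnj2, 0.17 for Atp1b1 and Sgk1 and -0.11 for Atp1b3 and Nedd4l, and with total counts it was 0.021 for Atp1b3 and Sgk1.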
